A study of Mus musculus with 32 samples.

Results

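Bulk RNA-seq counts of 56 cell cycle and DNA replication genes were examined in a mouse lung endothelial cell (EC) line. The members were found by symbol, all 56 among the 54429 gene symbols of the merged count table. By role they comprised 17 replication genes, 19 mitotic genes, 8 G1 cyclins and kinases, 5 cyclin-dependent kinase (CDK) inhibitors and 7 transcription factors. The cells, named Veravec, are an established line of lung ECs grown with serum, VEGF and bFGF, and no animal or tumor tissue entered these libraries. They were transfected with a control siRNA (si-control) or with siRNA against Dnmt1 (si-dnmt), the maintenance DNA methyltransferase. Each siRNA was then combined with no cytokine, TNF (TNFα, 10 ng/mL), IFN (IFNγ, 1000 U/mL) or TNF + IFN, given for 16 h, which made 8 groups of 4 libraries and 32 libraries in all. Every library, controls included, therefore came from transfected cells of 1 line, and the labels give no culture, day or batch for the replicate numbers 1 to 4. The study's methods list 2 siRNA sequences against Dnmt1, and the labels do not say which library received which.

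A dividing cell passes from G1 into S phase when D-type and E-type cyclins, bound to their CDKs, release E2F transcription factors, and CDK inhibitors hold this step back. In S phase the MCM helicase, the PCNA clamp and the polymerases copy the DNA while ribonucleotide reductase and thymidylate synthase supply the nucleotides. Mitotic genes, such as those for cyclin B, Aurora kinases and the spindle checkpoint, peak later and answer to the FOXM1 and MYBL2 factors. DNMT1 itself works at the replication fork, where it copies methyl marks onto the new strand, and inflammatory cytokines are known to change EC proliferation.

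The promoters of the replication and the mitotic members were searched for short motifs known from cell cycle promoters, and 6 windows are shown because these roles are kept apart in the results. Windows of 250 bases before to 50 after the start of each gene were taken from RefSeq (GRCm38.p6), which gave 51 windows for 45 of the 56 members. The motifs searched on both strands were E2F octamers (TTTCCCGC, TTTGGCGC, TTTCGCGC or TTTGGCGG), the cell cycle homology region or CHR (TTTGAA or TTCGAA) and CCAAT, and E2F octamers can overlap each other. Capitals mark these motifs in either orientation in the windows below, written 5′ to 3′ on the strand of the gene.

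Mcm5 (chr8:75109259-75109558, plus strand): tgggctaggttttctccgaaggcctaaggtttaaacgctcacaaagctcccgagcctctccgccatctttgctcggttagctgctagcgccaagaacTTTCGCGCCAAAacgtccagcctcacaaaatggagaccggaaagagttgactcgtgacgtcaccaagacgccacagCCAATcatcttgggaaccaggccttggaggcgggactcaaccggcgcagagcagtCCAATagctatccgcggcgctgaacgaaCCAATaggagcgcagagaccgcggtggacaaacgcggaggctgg

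Mcm6 (chr1:128359656-128359955, minus strand): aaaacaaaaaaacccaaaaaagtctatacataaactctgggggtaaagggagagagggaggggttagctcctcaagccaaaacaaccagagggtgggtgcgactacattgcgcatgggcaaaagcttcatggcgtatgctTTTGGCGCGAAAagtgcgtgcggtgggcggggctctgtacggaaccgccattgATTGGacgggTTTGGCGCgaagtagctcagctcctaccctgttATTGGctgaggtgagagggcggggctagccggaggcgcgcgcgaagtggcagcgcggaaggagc

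Cdk1 (chr10:69352863-69353162, minus strand): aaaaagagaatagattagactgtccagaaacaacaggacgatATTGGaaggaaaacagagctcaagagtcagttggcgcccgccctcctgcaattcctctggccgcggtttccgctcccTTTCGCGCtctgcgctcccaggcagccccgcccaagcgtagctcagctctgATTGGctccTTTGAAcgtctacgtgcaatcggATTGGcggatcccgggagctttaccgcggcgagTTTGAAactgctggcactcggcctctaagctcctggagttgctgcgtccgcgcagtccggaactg

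Top2a (chr11:99024140-99024439, minus strand): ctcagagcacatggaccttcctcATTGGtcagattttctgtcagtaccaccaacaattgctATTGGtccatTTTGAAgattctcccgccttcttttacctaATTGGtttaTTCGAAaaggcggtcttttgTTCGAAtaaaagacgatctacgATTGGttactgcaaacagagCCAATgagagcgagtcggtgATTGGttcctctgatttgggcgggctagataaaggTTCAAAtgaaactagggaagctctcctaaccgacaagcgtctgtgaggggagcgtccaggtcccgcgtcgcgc

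Ccnb2 (chr9:70421505-70421804, minus strand): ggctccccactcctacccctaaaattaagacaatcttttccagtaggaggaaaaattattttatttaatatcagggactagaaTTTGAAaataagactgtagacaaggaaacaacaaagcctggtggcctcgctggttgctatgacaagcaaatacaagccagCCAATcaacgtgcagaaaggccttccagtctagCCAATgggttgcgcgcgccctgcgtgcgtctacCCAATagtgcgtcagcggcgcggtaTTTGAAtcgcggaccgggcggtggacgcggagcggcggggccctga

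Cdc20 (chr4:118437294-118437593, minus strand): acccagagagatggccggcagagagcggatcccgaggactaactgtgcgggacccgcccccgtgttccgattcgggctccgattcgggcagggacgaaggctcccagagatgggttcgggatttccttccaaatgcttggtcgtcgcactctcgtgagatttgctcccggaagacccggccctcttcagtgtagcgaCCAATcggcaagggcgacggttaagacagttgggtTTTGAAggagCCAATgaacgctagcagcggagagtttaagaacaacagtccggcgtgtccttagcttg

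Mcm5 and Mcm6 encode helicase subunits, Cdk1 the mitotic kinase, Top2a a topoisomerase, Ccnb2 a B-type cyclin and Cdc20 an activator of the anaphase-promoting complex. An E2F octamer lay in 7 of 15 replication windows (46.7%), in 1 of 16 mitotic windows (6.25%) and in 2.37% of all 32851 promoter windows. A CHR and a CCAAT box together lay in 12 of 16 mitotic windows (75%), in 3 of 15 replication windows (20%) and in 7.52% of all windows. CCAAT was in 80% of the replication and 87.5% of the mitotic windows, against 37.4% of all, and a CHR in 19.2% of all. The binding of a factor to these letters was not measured.

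Total counts ranged from 17362546 to 33500030 per library, and the members took 0.279% to 0.658% of them. Levels are given in CPM, read counts divided by the library size after scaling by TMM factors. Differences are log2 fold changes ± SE from edgeR's quasi-likelihood test, fitted over 15254 genes and all 32 libraries, with calls made below 0.05 after Benjamini-Hochberg adjustment. The SE was derived from the F value of that test, as the absolute log2 fold change divided by the square root of F. Dnmt1, the target of the siRNA, stood at 92.3, 88.2, 158 and 152 CPM in si-control without cytokine and at 10.9, 13.3, 7.03 and 7.12 CPM in si-dnmt, in the order of replicates 1 to 4, and in the 3 cytokine states its si-dnmt libraries also lay far below those of si-control (79.3 to 193 CPM against 5.31 to 17.1 CPM). In si-control Dnmt1, itself an S-phase gene, was higher in replicates 3 and 4 than in 1 and 2 (0.63 ± 0.04, adjusted p = 4.76e-14), and in si-dnmt it was lower there (−1.05 ± 0.06, adjusted p = 4.39e-16). Endothelial markers such as Pecam1 and Cdh5 were abundant in every library, whereas Cldn5 reached at most 814 counts and Vwf at most 1305. The summed level of 12 endothelial markers in replicates 3 and 4 was 0.718 to 0.806 times that in 1 and 2, with group means of 4308 to 5186 CPM in the groups given TNF and 6856 to 8319 CPM in the others. The 6 epithelial markers had at most 4 counts each, and Ptprc, Cd3e, Itgam, Rgs5, Cspg4, Kcnj8 and Lum at most 5. Of the other markers of non-endothelial cells, Acta2 (131 to 7077 counts), Cd68 (1013 to 4614) and Dcn (10 to 1253) were detected in every library, and Pdgfra (1 to 92), Col1a1 (0 to 80), Myh11 (0 to 45) and Col1a2 (0 to 8) were low. The 5 fibroblast markers summed to group means of 1.90 to 5.51 CPM in the groups without TNF and 15.3 to 36.2 CPM in those with it. In si-control with TNF they summed to 57.1 CPM in replicates 1 and 2 and 15.2 CPM in 3 and 4. The 5 pericyte and smooth muscle markers summed to group means of 15.6 to 40.6 CPM in si-control and 94.9 to 165.5 CPM in si-dnmt, and Acta2 was higher in si-dnmt averaged over the states (2.15 ± 0.27, adjusted p = 2.31e-07). Because replicates 3 and 4 stood apart from 1 and 2 in every group, results over all 4 replicates are followed by values within each pair, called replicate set, for the role groups and for members described one by one. What separates the sets cannot be told from the labels, and the part of these marker levels in the results was not tested.

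Of the 56 members, 54 passed the filter on low counts. The other 2 were the CDK inhibitors Cdkn2a and Cdkn2b, neighbours on 1 chromosome that restrain CDK4 and CDK6 and, in the case of the second product of Cdkn2a, stabilise p53. Both had 0 counts in all 32 libraries, under either siRNA and with every cytokine, which at these depths allows up to 0.0896 to 0.173 CPM (3 counts). Among the genes next to them, Mtap was read in every library (44 to 583 counts), Dmrta1 had 0 counts and Ifne had 18 counts over all libraries.

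With si-dnmt against si-control, the members that changed in all 4 cytokine states were regulators of G1: Ccne1 and Ccnd3 were higher, and Cdkn1b and Cdk6 were lower. Cdkn1a was higher in 3 of the 4 states. Without cytokine the test called 3 members higher and 4 lower, against 9.55% and 8.8% of all genes tested. With TNF it called 3 members higher and 5 lower, against 10.3% and 9.56% of all genes tested. With IFN it called 3 members higher and 10 lower, against 10.8% and 9.56% of all genes tested (20.4% either way), and with TNF + IFN 2 members higher and 3 lower, against 8.91% and 8.65% of all genes tested. A fit that takes the replicate number as a block called 4 higher and 14 lower with TNF, against 17.1% and 16% of all genes in that fit. It called 3 higher and 10 lower with TNF + IFN, against 15.1% and 15.4%. In 3 of the 4 states the share of members called was below that of all genes in both directions, and with IFN it was above it for the lower direction. Within replicates 1 and 2 alone 7 members were higher and 2 lower without cytokine, 4 and 11 with TNF, 17 and 2 with IFN, and 7 and 6 with TNF + IFN. Of all genes that fit called 13.1%, 13.8%, 12.8% and 12.1% higher and 10.9%, 12.6%, 12.5% and 11.8% lower in the same order. In replicates 3 and 4 alone they were 5 higher and 42 lower without cytokine, 4 and 40 with TNF, 5 and 39 with IFN, and 5 and 41 with TNF + IFN. Of all genes 17.6%, 17.6%, 18.5% and 17% were called higher there and 18.6%, 18.6%, 19.7% and 18.9% lower. In a bulk sample a smaller share of cycling cells and less RNA of these genes per cell cannot be told apart.

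Ccne1 encodes cyclin E1, which activates CDK2 at the entry into S phase. Ccne1 in si-control stood at 4.42, 4.83, 6.999 and 6.22 CPM without cytokine, 10.55, 11.1, 7.80 and 7.49 with TNF, 5.39, 4.82, 6.81 and 5.97 with IFN and 18.8, 19.3, 14.2 and 15.7 with TNF + IFN. With si-dnmt it stood at 10.6, 13.99, 15.4 and 15.2 CPM without cytokine, 23.7, 22.2, 21.5 and 21.2 with TNF, 13.1, 11.5, 16.8 and 18.8 with IFN and 33.2, 29.8, 30.4 and 30.6 with TNF + IFN. In each state every si-dnmt library was above every si-control library, in both replicate sets. The log2 fold changes of Ccne1 were 1.21 ± 0.16 without cytokine, 1.19 ± 0.16 with TNF, 1.29 ± 0.16 with IFN and 0.79 ± 0.15 with TNF + IFN (adjusted p = 3.94e-06, 3.28e-06, 1.63e-06 and 0.00051). Ccnd3 encodes a D-type cyclin, a partner of CDK4 and CDK6. Its levels in si-control were 42.5, 42.2, 72.3 and 62.04 CPM without cytokine, 40.1, 45.2, 40.8 and 46.8 with TNF, 39.5, 49.5, 60.4 and 72.5 with IFN and 61.3, 57.4, 53.1 and 59.3 with TNF + IFN. The si-dnmt levels of Ccnd3 were 84.03, 85.6, 97.2 and 113 CPM without cytokine, 82.4, 83.98, 96.4 and 104 with TNF, 99.005, 90.3, 111 and 135 with IFN and 101, 109, 115 and 117 with TNF + IFN. No si-dnmt library of Ccnd3 overlapped the si-control libraries of its state. Its log2 fold changes were 0.71 ± 0.15 without cytokine, 1.01 ± 0.15 with TNF, 0.88 ± 0.15 with IFN and 0.87 ± 0.15 with TNF + IFN (adjusted p = 0.00124, 2.09e-05, 0.000119 and 0.000162).

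Cdkn1b encodes the CDK inhibitor known as p27, which binds cyclin E with CDK2. Cdkn1b in si-control stood at 138, 115, 128 and 127 CPM without cytokine, 109.6, 103, 108 and 94.7 with TNF, 152, 119, 159 and 143 with IFN and 112, 119, 119.7 and 114 with TNF + IFN. In si-dnmt its levels were 73.6, 79.7, 77.6 and 78.1 CPM without cytokine, 68.5, 66.5, 58.9 and 60.5 with TNF, 71.3, 84.5, 76.2 and 76 with IFN and 66.4, 70.9, 63.6 and 56.7 with TNF + IFN. Every si-dnmt library was below every si-control library of its state, in both replicate sets. The log2 fold changes of Cdkn1b were −0.80 ± 0.09 without cytokine, −0.77 ± 0.09 with TNF, −0.98 ± 0.09 with IFN and −0.92 ± 0.09 with TNF + IFN (adjusted p = 1.66e-07, 2.15e-07, 5.32e-09 and 3.36e-08). Cdk6, the kinase that pairs with D-type cyclins, stood in si-control at 44.9, 40.9, 58.2 and 62.7 CPM without cytokine, 87.2, 85.8, 136 and 118 with TNF, 90.2, 68.4, 105 and 90.7 with IFN and 107, 129, 131 and 124 with TNF + IFN. Cdk6 in si-dnmt stood at 32.05, 32.9, 37.1 and 32.01 CPM without cytokine, 65.2, 61.3, 59.4 and 64.1 with TNF, 51.9, 43.4, 44.2 and 42.9 with IFN and 88.8, 80.1, 74.98 and 70.2 with TNF + IFN. The groups did not overlap in any state, and si-control replicates 3 and 4 were above 1 and 2 without cytokine, with TNF and with IFN. The log2 fold changes of Cdk6 were −0.70 ± 0.14 without cytokine, −0.84 ± 0.14 with TNF, −1.05 ± 0.14 with IFN and −0.71 ± 0.14 with TNF + IFN (adjusted p = 0.000539, 5.73e-05, 3.92e-06 and 0.000432). Its fall was larger in replicates 3 and 4 (−1.04 over the 4 states) than in 1 and 2 (−0.59), with an siRNA-by-set difference of −0.45 ± 0.08 (adjusted p = 2.63e-05). The calls of Ccne1, Ccnd3, Cdkn1b and Cdk6 were kept with each library left out in turn and in each replicate set.

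Cdkn1a encodes the inhibitor p21, a target of p53. Cdkn1a in si-control stood at 182, 163, 208 and 189.8 CPM without cytokine, 191, 187, 134 and 158 with TNF, 185, 185, 186 and 205 with IFN and 296, 315, 173 and 184 with TNF + IFN. In si-dnmt its levels were 247, 257, 333 and 340.1 CPM without cytokine, 322, 336, 346 and 335 with TNF, 279, 266, 313 and 338 with IFN and 285, 303, 308 and 326 with TNF + IFN. The groups of Cdkn1a were apart in the first 3 states, while with TNF + IFN si-control replicates 1 and 2 lay in the si-dnmt range and replicates 3 and 4 below it. The log2 fold changes were 0.58 ± 0.15 without cytokine, 0.93 ± 0.15 with TNF, 0.56 ± 0.15 with IFN and 0.26 ± 0.15 with TNF + IFN (adjusted p = 0.00598, 4.59e-05, 0.00749 and 0.252). With TNF + IFN the value was −0.13 (adjusted p = 0.274) in replicates 1 and 2 and 0.75 (adjusted p = 9.97e-08) in replicates 3 and 4, and the difference between the sets was 0.88 ± 0.11 (adjusted p = 1.72e-06). Cdkn2c, an inhibitor of CDK4 and CDK6, stood in si-control at 18.3, 13.4, 34.4 and 31.7 CPM without cytokine, 27.8, 20.5, 23.2 and 27.5 with TNF, 22.2, 22.1, 43.97 and 51.5 with IFN and 17.6, 16.9, 25.04 and 29.7 with TNF + IFN. Its si-dnmt levels were 14.97, 14.8, 17.1 and 22.05 CPM without cytokine, 21.4, 22.6, 16.995 and 18.4 with TNF, 21.9, 20.9, 22.7 and 26.1 with IFN and 17.1, 15.1, 16.3 and 12.4 with TNF + IFN. The groups of Cdkn2c overlapped in every state, and si-control replicates 1 and 2 lay in or near the si-dnmt range. It was called with IFN alone (−0.69 ± 0.25, adjusted p = 0.0466), a call lost without any 1 of 19 libraries (−0.75 to −0.46), and its siRNA-by-set difference was −0.71 ± 0.10 (adjusted p = 2.61e-06). The Cdkn2c call was also lost with library totals alone (−0.61), with no low-count filter (−0.67), with the 2 groups fitted alone (−0.69) and in replicates 1 and 2 (−0.16).

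**Figure D1:**
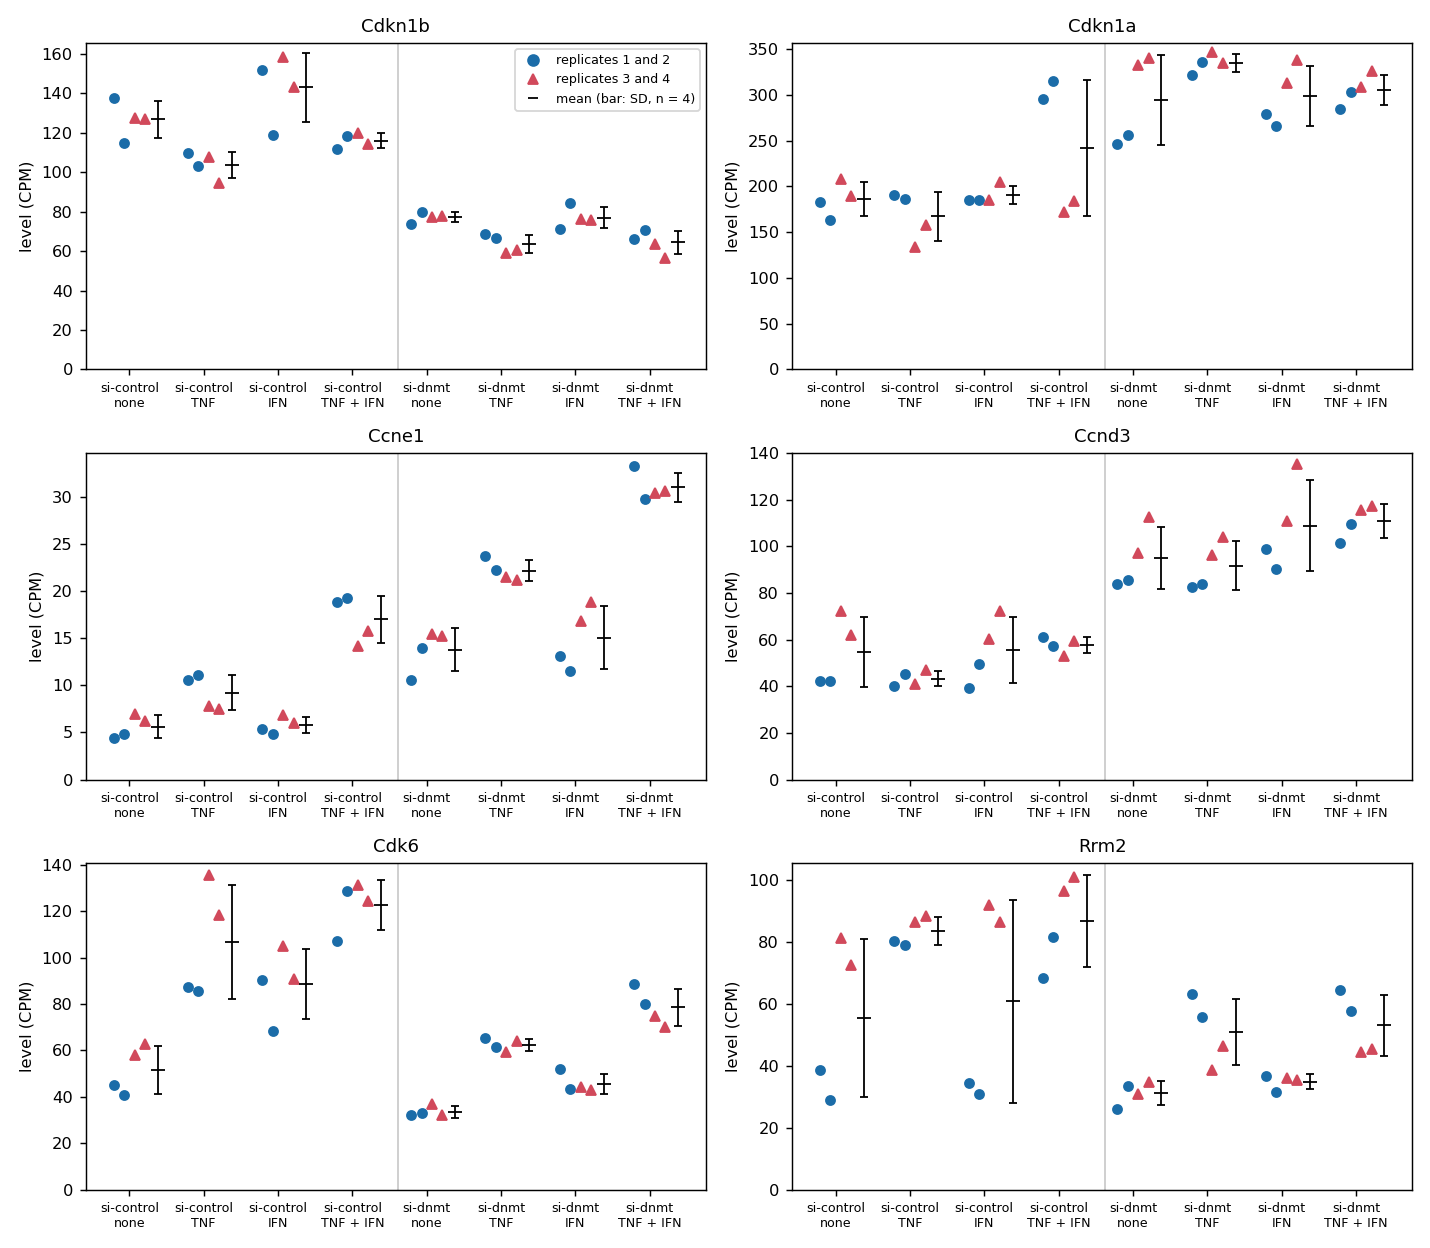
Levels (CPM, linear axes from 0) of Cdkn1b, Cdkn1a, Ccne1, Ccnd3, Cdk6 and Rrm2 in the 8 groups, 1 point per library (circles, replicates 1 and 2, and triangles, replicates 3 and 4) with the mean and SD of the 4 libraries. Cdkn1b and Cdk6 are lower and Ccne1 and Ccnd3 higher in si-dnmt in each state with no overlap, whereas Rrm2 of si-control replicates 1 and 2 lies near si-dnmt without cytokine and with IFN.

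Ccnd1 encodes cyclin D1, a mitogen-driven partner of CDK4 and CDK6. Ccnd1 in si-control stood at 213, 182, 298 and 299 CPM without cytokine, 275, 269.8, 344 and 361 with TNF, 177, 159.5, 335 and 303 with IFN and 277, 303, 419 and 455 with TNF + IFN. In si-dnmt it stood at 242, 265, 353 and 378 CPM without cytokine, 443, 451, 551 and 565 with TNF, 260.2, 227, 417 and 409 with IFN and 483, 401, 642 and 643 with TNF + IFN. Replicates 3 and 4 were above 1 and 2 under both siRNAs, and within each set the si-dnmt libraries of Ccnd1 were above the si-control libraries of the same state. Over all 4 replicates Ccnd1 was called in none of the states (0.24 ± 0.22 without cytokine, 0.61 ± 0.22 with TNF, 0.34 ± 0.22 with IFN and 0.51 ± 0.22 with TNF + IFN, adjusted p = 0.512, 0.0513, 0.308 and 0.123). With the replicate number as a block it was called in each (0.25, 0.62, 0.35 and 0.51, adjusted p = 0.0285, 1.85e-06, 0.00204 and 3.71e-05). Averaged over the states its rise was 0.42 ± 0.11 (adjusted p = 0.00243). Ccnd2, another D-type cyclin, had few reads and stood at 1.25, 1.10, 2.57 and 3.04 CPM without cytokine, 1.60, 0.861, 3.48 and 2.40 with TNF, 0.740, 0.286, 1.68 and 1.49 with IFN and 0.761, 0.838, 1.52 and 1.32 with TNF + IFN in si-control. Ccnd2 in si-dnmt stood at 1.22, 1.93, 3.98 and 3.41 CPM without cytokine, 1.32, 1.20, 4.46 and 3.79 with TNF, 0.558, 0.702, 2.54 and 3.34 with IFN and 0.922, 0.775, 2.73 and 3.43 with TNF + IFN. The groups overlapped in each state and Ccnd2 was called in none of them, with an averaged value of 0.52 ± 0.29 (adjusted p = 0.151), or 0.46 (adjusted p = 0.00258) with the block. Within replicates 3 and 4 alone it was higher with IFN (0.82, adjusted p = 0.017), with TNF + IFN (1.05, adjusted p = 0.00458) and averaged (0.64, adjusted p = 0.000106). Within replicates 1 and 2 it passed in none of these, and its TNF value was −0.027 (adjusted p = 0.971). Of the other G1 members, Cdk4 was lower in the averaged comparison (−0.15 ± 0.05, adjusted p = 0.0129), a call lost with scaling by library totals alone (−0.0688, adjusted p = 0.319), and Cdk2 (−0.0047 ± 0.06, adjusted p = 0.958) and Ccne2 (−0.26 ± 0.13, adjusted p = 0.1) did not pass.

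The 17 replication and 19 mitotic members were mostly below si-control in si-dnmt over all replicates, but few passed in a single state, and both the size and the direction differed between the replicate sets. Summed over the 19 mitotic members, si-control libraries stood at 1065, 1020.4, 2233 and 2207 CPM without cytokine, in the order of replicates 1 to 4, and si-dnmt libraries at 1130.0, 1296, 1339.9 and 1409 CPM. With TNF the sums were 2332, 2428, 3487 and 3323 CPM in si-control and 2311, 2133, 1829 and 1954 CPM in si-dnmt. In both states si-control replicates 3 and 4 stood above all other libraries, while replicates 1 and 2 lay just below the si-dnmt libraries without cytokine and just above them with TNF. With IFN the mitotic sums were 1348, 1254, 3109.5 and 2909.9 CPM in si-control and 1533, 1431, 1513 and 1570.4 CPM in si-dnmt, and with TNF + IFN 1319.9, 1563, 2846 and 2814 CPM and 1793, 1625, 1645 and 1500.3 CPM. The 17 replication members summed to 763, 717, 1190.5 and 1114 CPM in si-control and 776, 833, 815 and 908 CPM in si-dnmt without cytokine. With TNF they summed to 1644, 1609, 1627 and 1655 CPM and 1501, 1427, 1194 and 1264 CPM. The si-control sums of replication members differed between the sets without cytokine and with IFN (645, 615, 1235 and 1216 CPM), and lay together with TNF. Single replication members did differ between the sets with TNF, in both directions. In si-control with TNF, Pcna stood at 387, 325, 216 and 225 CPM and Pola1 at 67.6, 69.2, 90 and 85.4 CPM. The si-dnmt sum with IFN was 833, 769, 869.7 and 900.3 CPM, and with TNF + IFN the sums were 1268, 1373, 1608 and 1714 CPM in si-control and 1384, 1273, 1216 and 1131 CPM in si-dnmt.

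**Figure D2:**
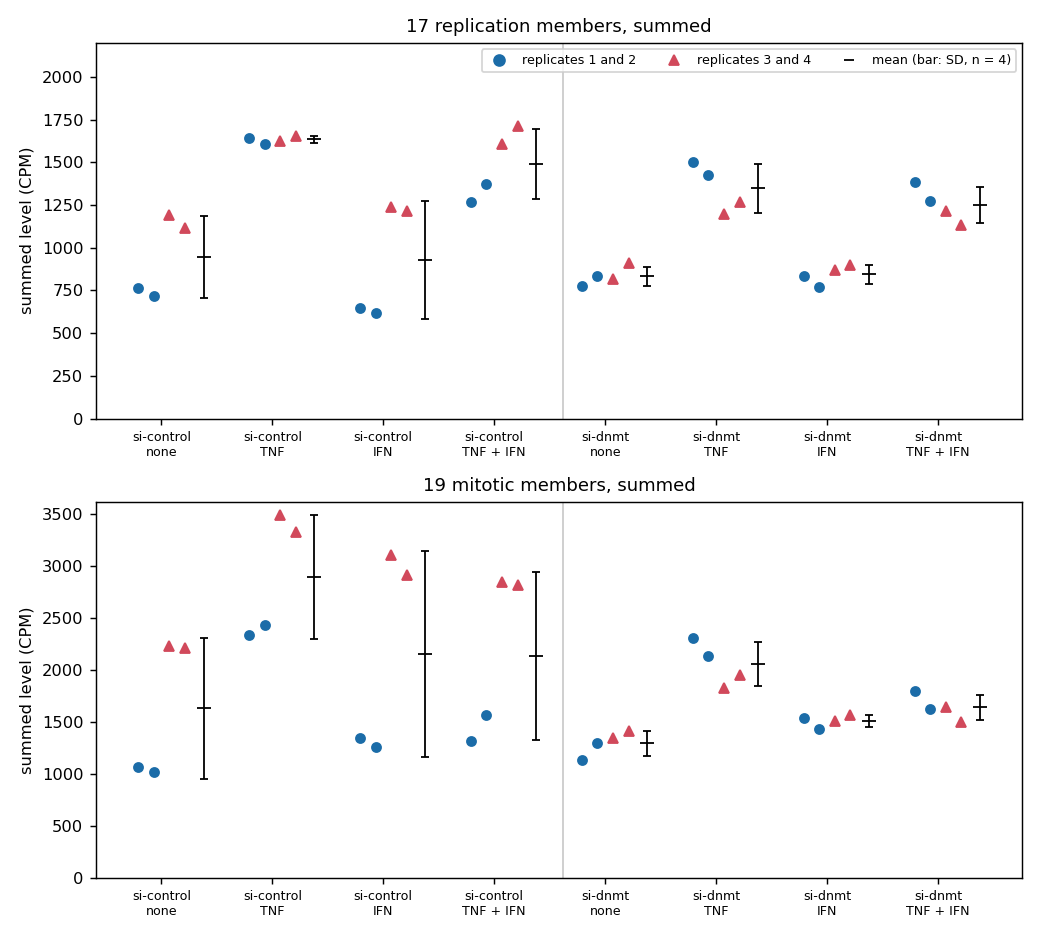
Summed level (CPM, linear axes from 0) of the 17 replication members (top) and the 19 mitotic members (bottom) in each library of the 8 groups, with circles for replicates 1 and 2, triangles for replicates 3 and 4, and the mean and SD of 4 libraries. The mitotic sums of si-control replicates 3 and 4 lie above every other library of their state, and in the mitotic panel the si-dnmt libraries of a state spread less.

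Over all 4 replicates the median log2 fold change of the mitotic members was −0.42 (0 of 19 lower) without cytokine, −0.56 (1 of 19 lower) with TNF, −0.62 (5 of 19 lower) with IFN and −0.47 (0 of 19 lower) with TNF + IFN, beside −0.0049, 0.0038, −0.0067 and 0.0015 over all genes tested. Where edgeR called 0 mitotic members, 6 of 19 without cytokine and 5 of 19 with TNF + IFN lay below si-control by unadjusted p under 0.05, while DESeq2's Wald test called 0 and 1. That of the replication members was −0.29 (2 of 17 lower), −0.34 (2 of 17 lower), −0.21 (2 of 17 lower) and −0.34 (1 of 17 lower) in the same order, with 0 members of either role higher by edgeR, by DESeq2 or at an unadjusted p under 0.05. In replicates 1 and 2 the mitotic medians were 0.12, −0.15, 0.06 and 0.08 and the replication medians 0.12, −0.11, 0.24 and −0.10. There 0, 3, 0 and 0 mitotic and 0, 3, 0 and 4 replication members were lower, and with IFN 8 replication members were higher. In replicates 3 and 4 the mitotic medians were −0.77, −0.95, −1.09 and −0.90, with 19, 19, 19 and 18 of 19 members lower, and the replication medians −0.56, −0.60, −0.56 and −0.55, with 15, 14, 14 and 16 of 17 lower. The siRNA groups overlapped for every mitotic member in 3 of the 4 states, and with TNF 5 of 19 mitotic and 5 of 17 replication members had all si-dnmt libraries below all si-control libraries, against 8.17% of all genes tested. Of the replication members 2 of 17 did so without cytokine, 0 with IFN and 4 with TNF + IFN, against 6.96%, 7.03% and 7.92%. All genes with every si-dnmt library above were 15.3%, 15.1%, 16.4% and 14.6% in the order of the 4 states. The count was 0 for members of either role.

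The difference between the sets passed its own test, whose error came from the 2 libraries of each set in a group. In every group the libraries of a set were closer to each other than to those of the other set. Each set occurs once, so these p-values measure the spread within the sets and do not reach beyond these 2 sets. Averaged over the states, the siRNA effect in replicates 3 and 4 was below that in 1 and 2 for 42 members and above it for 1, against 14.9% and 9.01% of all genes tested. It was lower for 17 of 17 replication members (median −0.56) and for 19 of 19 mitotic members (median −0.92). Of the other roles, 4 of 7 transcription factors, 1 of 8 G1 members (Cdk6) and 1 of 3 inhibitors (Cdkn2c) were lower, and Cdkn1a was higher. By state the count of members lower was 34 without cytokine, 24 with TNF, 40 with IFN and 35 with TNF + IFN, against 5.34%, 4.21%, 3.93% and 6.39% of all genes tested. In si-control, 19 of 19 mitotic members (median 0.88) and 14 of 17 replication members (median 0.56) were higher in replicates 3 and 4, and 44 members in all, against 27.7% of all genes. In si-dnmt the medians were −0.05 and −0.14, with 11 members higher and 19 lower, against 25.3% and 28.8% of all genes.

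**Figure D3:**
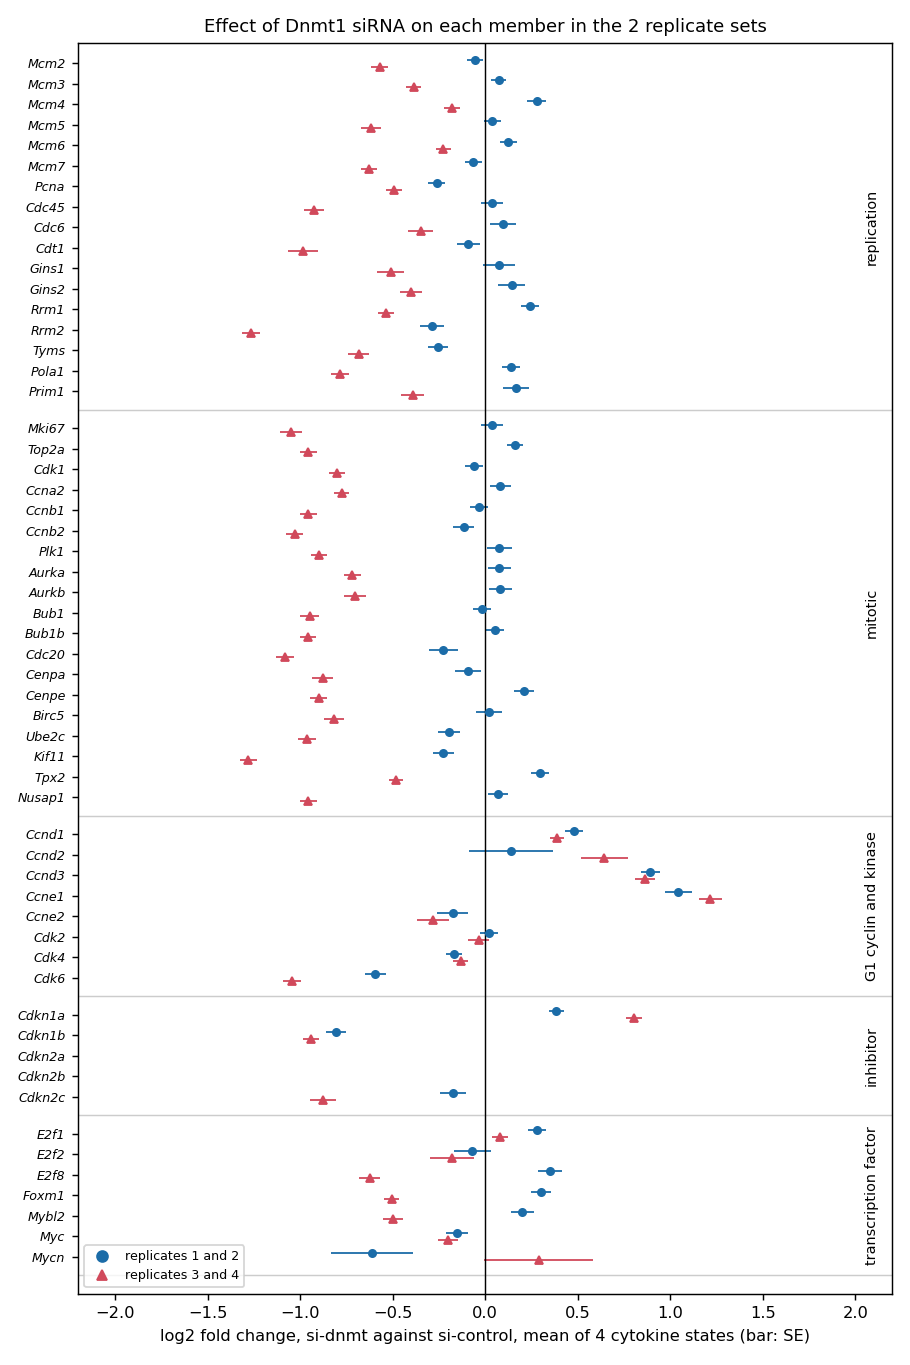
Log2 fold change (si-dnmt against si-control, averaged over the 4 cytokine states, bars SE) of each of the 54 tested members, with circles for replicates 1 and 2 and triangles for replicates 3 and 4, grouped by role. The mitotic members lie near 0 in replicates 1 and 2 (median 0.04) and below it in replicates 3 and 4 (median −0.95), whereas Ccne1 and Ccnd3 lie above 0 and Cdkn1b below it in both sets.

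Mki67 encodes the proliferation antigen Ki-67, which coats mitotic chromosomes. Mki67 in si-control stood at 165, 168, 340.0 and 333 CPM without cytokine, 346, 356, 555 and 496 with TNF, 156, 139, 381 and 337 with IFN and 191, 222, 419.9 and 349 with TNF + IFN. With si-dnmt it stood at 169, 214, 233 and 184 CPM without cytokine, 358, 298, 254 and 277 with TNF, 189, 148, 176 and 162 with IFN and 249, 212, 195 and 164 with TNF + IFN. Replicates 3 and 4 of si-control were the highest libraries of Mki67 in each state, while replicates 1 and 2 lay among or near the si-dnmt libraries. Averaged over the states Mki67 fell by 0.57 ± 0.14 (adjusted p = 0.00123), with 0.04 (adjusted p = 0.656) in replicates 1 and 2 and −1.05 (adjusted p = 6.21e-13) in replicates 3 and 4. Top2a untangles sister DNA before anaphase, and its levels in si-control were 184, 192, 405 and 422 CPM without cytokine, 491, 563, 849 and 768 with TNF, 291, 263, 769 and 687 with IFN and 348, 397, 810.3 and 826 with TNF + IFN. Top2a in si-dnmt stood at 227, 242, 249 and 283 CPM without cytokine, 501, 503, 413 and 452 with TNF, 372, 365, 379 and 387 with IFN and 480.3, 431, 435 and 369 with TNF + IFN. The si-dnmt libraries of Top2a lay above si-control replicates 1 and 2 and below replicates 3 and 4 without cytokine and with IFN. Its averaged value was −0.49 ± 0.15 (adjusted p = 0.00804), with 0.16 (adjusted p = 0.00471) in replicates 1 and 2 and −0.96 (adjusted p = 1.37e-15) in replicates 3 and 4. The siRNA-by-set difference was −1.09 ± 0.09 (adjusted p = 1.75e-09) for Mki67 and −1.12 ± 0.07 (adjusted p = 2.09e-14) for Top2a.

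Cdk1, the kinase that drives mitosis, stood in si-control at 67.1, 52.4, 107 and 106 CPM without cytokine, 129.9, 122, 134 and 144 with TNF, 62.4, 63.3, 131 and 135 with IFN and 71.7, 73.5, 111 and 122 with TNF + IFN. In si-dnmt Cdk1 stood at 59.02, 64.6, 61.97 and 74.3 CPM without cytokine, 107, 95.7, 87.4 and 86.2 with TNF, 73.4, 70.1, 71.6 and 75.02 with IFN and 83.6, 75.97, 75.2 and 70.8 with TNF + IFN. Its averaged value was −0.47 ± 0.10 (adjusted p = 0.000469), with −0.06 (adjusted p = 0.314) in replicates 1 and 2 and −0.80 (adjusted p = 1.39e-14) in replicates 3 and 4. The highest Cdk1 libraries of each state were si-control replicates 3 and 4, and Ccnb1, its partner cyclin, showed the same. Ccnb1 in si-control stood at 55.01, 56.3, 117 and 109.7 CPM without cytokine, 108, 112, 164 and 164 with TNF, 70.4, 65.7, 149.6 and 139 with IFN and 49.4, 59.8, 113 and 120.3 with TNF + IFN. In si-dnmt Ccnb1 stood at 56.5, 59.3, 58.5 and 71.03 CPM without cytokine, 108, 94.01, 91.2 and 97.1 with TNF, 69.7, 67.8, 65.9 and 73.2 with IFN and 66.2, 61.3, 68.4 and 62.6 with TNF + IFN. Its averaged value was −0.57 ± 0.13 (adjusted p = 0.0007), with −0.03 (adjusted p = 0.574) in replicates 1 and 2 and −0.96 (adjusted p = 1.46e-15) in replicates 3 and 4. Plk1 encodes the Polo-like kinase of spindle assembly and mitotic exit. Plk1 in si-control stood at 23.1, 18.8, 52.3 and 50.3 CPM without cytokine, 37.2, 44.5, 71.3 and 67.05 with TNF, 27.6, 28.5, 64.4 and 63.3 with IFN and 16.8, 18.99, 45.3 and 46.8 with TNF + IFN. In si-dnmt Plk1 stood at 21.8, 27.9, 30.2 and 29.8 CPM without cytokine, 45.8, 43.04, 36.8 and 38.9 with TNF, 33.2, 26.8, 32.1 and 34.4 with IFN and 21.2, 18.8, 30.6 and 27.2 with TNF + IFN. Its averaged value was −0.51 ± 0.16 (adjusted p = 0.011), with 0.08 (adjusted p = 0.365) in replicates 1 and 2 and −0.90 (adjusted p = 3.49e-15) in replicates 3 and 4. None of Cdk1, Ccnb1 and Plk1 was called in a single state over all 4 replicates, where their values ran from −0.70 (Ccnb1 with IFN) to −0.38 (Cdk1 with TNF + IFN). With the block, Cdk1 was lower with TNF (−0.54, adjusted p = 0.0284) and Ccnb1 with IFN (−0.62, adjusted p = 0.0237).

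Kif11, the spindle motor that pushes the poles apart, was the mitotic member with the largest averaged fall (−0.82 ± 0.14, adjusted p = 1.35e-05). Kif11 in si-control stood at 52.9, 55.1, 114 and 120.5 CPM without cytokine, 126, 129.6, 164 and 149.9 with TNF, 70.8, 61.4, 164 and 143 with IFN and 57.3, 73.2, 132 and 127 with TNF + IFN. In si-dnmt it stood at 50.8, 62.3, 51.5 and 58.2 CPM without cytokine, 88.8, 85.3, 67.2 and 71.2 with TNF, 62.6, 61.02, 60.2 and 64.2 with IFN and 72.8, 56.9, 58.7 and 53.6 with TNF + IFN. Kif11 groups were apart with TNF and overlapped in the other states, where si-control replicates 1 and 2 lay in or near the si-dnmt range. It was called with TNF (−0.94 ± 0.27, adjusted p = 0.0149) and with IFN (−0.91 ± 0.27, adjusted p = 0.0178). The TNF call was lost without si-dnmt + TNF replicate 3 (−0.87), and the IFN call without si-control + IFN replicate 3 or 4 (−0.77 to −0.65). With TNF + IFN the value was −0.75 ± 0.27 (adjusted p = 0.0565), or −0.68 (adjusted p = 0.048) with the block. Cdc20 (−0.98 ± 0.33, adjusted p = 0.0349) and Ccnb2 (−0.83 ± 0.29, adjusted p = 0.0391) were called with IFN, and both calls were lost without si-control + IFN replicate 3 or 4 or any 1 si-dnmt + IFN library (−1.04 to −0.77 and −0.89 to −0.63). In replicates 1 and 2 the IFN values were −0.20 for Kif11, −0.39 for Cdc20 and −0.25 for Ccnb2, and in replicates 3 and 4 −1.40, −1.36 and −1.22. The IFN calls of all 3 were lost with no low-count filter and with the 2 groups fitted alone (−0.98 to −0.81), and those of Cdc20 and Ccnb2 also with library totals alone (−0.90 and −0.75).

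Rrm2, the regulated subunit of ribonucleotide reductase, was called in 3 states. Rrm2 in si-control stood at 38.7, 29.1, 81.5 and 72.6 CPM without cytokine, 80.3, 79.3, 86.7 and 88.6 with TNF, 34.5, 30.9, 92.1 and 86.6 with IFN and 68.4, 81.7, 96.6 and 101 with TNF + IFN. With si-dnmt it stood at 26.04, 33.6, 31.002 and 34.7 CPM without cytokine, 63.2, 55.8, 38.7 and 46.4 with TNF, 36.6, 31.5, 36.2 and 35.6 with IFN and 64.7, 57.8, 44.5 and 45.5 with TNF + IFN. With TNF and with TNF + IFN every si-dnmt library of Rrm2 was below every si-control library, and in the other states si-control replicates 1 and 2 lay in or near the si-dnmt range. The log2 fold changes of Rrm2 were −0.90 ± 0.28 without cytokine, −0.78 ± 0.28 with TNF, −0.88 ± 0.28 with IFN and −0.78 ± 0.28 with TNF + IFN (adjusted p = 0.0237, 0.046, 0.0249 and 0.0527), and with the block the last was −0.74 (adjusted p = 0.0465). The call without cytokine was lost without any 1 of si-control replicates 3 and 4 and si-dnmt replicates 1 and 3 (−0.89 to −0.66), that with TNF without any 1 of 18 libraries (−0.83 to −0.67) and that with IFN without any 1 of 5 libraries (−0.89 to −0.61). Averaged over the states Rrm2 was lower in both sets (−0.29, adjusted p = 0.000612 in replicates 1 and 2 and −1.27, adjusted p = 6.65e-18 in replicates 3 and 4). Tyms, thymidylate synthase, stood in si-control at 30.5, 25.3, 36.1 and 29.4 CPM without cytokine, 55.8, 48.8, 39.7 and 43.5 with TNF, 26.2, 22.5, 35.4 and 33.7 with IFN and 41.4, 43.8, 35.9 and 44.5 with TNF + IFN. In si-dnmt Tyms stood at 24.6, 23.997, 19.4 and 21.9 CPM without cytokine, 48.4, 41.7, 29.4 and 27.5 with TNF, 22.2, 23.4, 19.9 and 22.2 with IFN and 38.8, 35.2, 28.3 and 29.3 with TNF + IFN. Tyms passed in the state without cytokine (−0.51 ± 0.16, adjusted p = 0.0255) and with IFN (−0.51 ± 0.16, adjusted p = 0.0251), and each call was lost without any 1 of 3 or 4 libraries (−0.49 to −0.42 and −0.51 to −0.41). With the block Tyms was also called with TNF (−0.43, adjusted p = 0.022) and TNF + IFN (−0.41, adjusted p = 0.0321). The Rrm2 calls were each lost with no low-count filter (−0.89 to −0.79) and the TNF call also with library totals alone (−0.71). The other 2 were lost with the 2 groups fitted alone (−0.90 and −0.88) and in replicates 1 and 2 (−0.26 and −0.05). Both Tyms calls were lost with library totals alone (−0.43 and −0.42) and in replicates 1 and 2 (−0.27 and −0.20).

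Pcna, the sliding clamp of the polymerases, stood in si-control at 158, 142, 178 and 174 CPM without cytokine, 387, 325, 216 and 225 with TNF, 129, 115, 188 and 173 with IFN and 253, 259.7, 208 and 232 with TNF + IFN. In si-dnmt Pcna stood at 137, 135, 121 and 137 CPM without cytokine, 271, 228, 180.5 and 165 with TNF, 129, 132, 134 and 127 with IFN and 236, 213, 174 and 166 with TNF + IFN. Its libraries did not overlap between the siRNAs without cytokine, and with TNF the si-dnmt libraries of each replicate set lay below the si-control libraries of that set. It was called with TNF (−0.52 ± 0.17, adjusted p = 0.0299). Among the TNF libraries, leaving out replicate 1 or 2 of si-control or replicate 3 or 4 of si-dnmt ended that call (−0.45 to −0.35). Mcm2, a helicase subunit, stood in si-control at 72.2, 65.9, 91.8 and 89.05 CPM without cytokine, 108, 116, 132 and 140.2 with TNF, 45.7, 44.3, 82.7 and 91.4 with IFN and 80.5, 79.4, 121 and 125 with TNF + IFN. In si-dnmt Mcm2 stood at 67.4, 75.5, 63.1 and 74.5 CPM without cytokine, 101, 100.2, 90.2 and 100.3 with TNF, 57.8, 51.7, 63.3 and 69.8 with IFN and 74.99, 75.8, 82.3 and 73.7 with TNF + IFN. Mcm2 was not called in a single state (−0.27 ± 0.17 without cytokine, −0.41 ± 0.17 with TNF, −0.21 ± 0.17 with IFN and −0.47 ± 0.17 with TNF + IFN, adjusted p = 0.299, 0.086, 0.424 and 0.0517), and with the block it passed with TNF (−0.39, adjusted p = 0.0251) and TNF + IFN (−0.44, adjusted p = 0.0132). Its averaged value was −0.34 ± 0.08 (adjusted p = 0.00141), with −0.05 (adjusted p = 0.316) in replicates 1 and 2 and −0.57 (adjusted p = 3.45e-11) in replicates 3 and 4. Cdt1, which loads the helicase, was called with TNF + IFN (−0.76 ± 0.25, adjusted p = 0.038), a call lost without any 1 of 5 libraries of that state (−0.79 to −0.66). The calls over all replicates of Pcna with TNF and of Cdt1 with TNF + IFN were lost with library totals alone (−0.45 and −0.69) and with no low-count filter (−0.52 and −0.77). That of Pcna was also lost with the 2 groups fitted alone (−0.53).

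Averaged over the 4 states, si-dnmt was lower in 33 members and higher in 5, against 24% and 24.4% of all genes tested. The 5 higher were Ccne1, Ccnd3, Cdkn1a (0.58 ± 0.07, adjusted p = 2.05e-07), Ccnd1 and E2f1. By role, 18 of 19 mitotic and 10 of 17 replication members were lower. The largest falls were in Kif11, Cdc20 (−0.74 ± 0.17, adjusted p = 0.000519) and Ccnb2 (−0.66 ± 0.14, adjusted p = 0.000399) among the mitotic members, and in Rrm2 (−0.84 ± 0.14, adjusted p = 1.53e-05), Cdt1 (−0.59 ± 0.13, adjusted p = 0.000345) and the helicase cofactor Cdc45 (−0.50 ± 0.13, adjusted p = 0.00222) among the replication members. Tpx2, which targets Aurora A to the spindle, was the mitotic member that did not pass (−0.14 ± 0.10, adjusted p = 0.301). The replication members that did not pass were Mcm4, Mcm6, Cdc6, Gins1, Gins2, Rrm1 and Prim1, with values from −0.22 to 0.02. In replicates 1 and 2 alone the averaged comparison called 15 members higher and 12 lower, against 25.9% and 24.1% of all genes, with medians of 0.04 (mitotic) and 0.07 (replication). In replicates 3 and 4 it called 5 higher and 45 lower, against 29.6% and 29.2% of all genes, with medians of −0.95 and −0.54, and 19 of 19 mitotic and 17 of 17 replication members were lower.

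Among the transcription factors, E2f1, an activator of S-phase genes, stood in si-control at 27.7, 23.3, 39.4 and 36.9 CPM without cytokine, 40.5, 41.05, 36.996 and 39.5 with TNF, 27.5, 29.2, 43.5 and 45.98 with IFN and 42.6, 44.3, 44.4 and 48.4 with TNF + IFN. In si-dnmt E2f1 stood at 37.6, 39.3, 42.6 and 45.7 CPM without cytokine, 49.5, 51.1, 45.7 and 47.9 with TNF, 38.2, 39.1, 45.2 and 48.1 with IFN and 46.8, 45.7, 51.4 and 47.5 with TNF + IFN. Every si-dnmt library of E2f1 was above every si-control library with TNF, and the groups overlapped in the other states. Its averaged rise was 0.17 ± 0.06 (adjusted p = 0.0295), which was lost without any 1 of 5 libraries (0.14 to 0.16), with no low-count filter (0.17) and in replicates 3 and 4 (0.08). Without cytokine it was 0.30 ± 0.13 (adjusted p = 0.11), or 0.30 (adjusted p = 0.034) with the block. Foxm1, the activator of mitotic genes, stood in si-control at 38.9, 39.4, 90.4 and 84.8 CPM without cytokine, 74.7, 78.5, 137 and 140.4 with TNF, 50.05, 48.6, 112 and 119.8 with IFN and 79.97, 76.8, 145 and 143 with TNF + IFN. In si-dnmt Foxm1 stood at 48.3, 59.6, 73.2 and 74.9 CPM without cytokine, 92.2, 93.8, 91.4 and 109 with TNF, 78.5, 59.9, 80.9 and 85.2 with IFN and 98.8, 93.3, 105 and 99.7 with TNF + IFN. The siRNA value of Foxm1 had opposite signs in the sets, 0.30 (adjusted p = 3.94e-05) in replicates 1 and 2 and −0.51 (adjusted p = 6.27e-11) in replicates 3 and 4, and the difference was −0.81 ± 0.07 (adjusted p = 3.72e-11). Over all replicates it did not pass (−0.18 ± 0.14, adjusted p = 0.312). Mybl2 (−0.17 ± 0.09, adjusted p = 0.125), E2f8 (−0.18 ± 0.12, adjusted p = 0.215) and E2f2 (−0.14 ± 0.12, adjusted p = 0.374) did not pass either, and the sets differed for Mybl2 (−0.70 ± 0.08, adjusted p = 2.00e-08) and E2f8 (−0.98 ± 0.09, adjusted p = 1.32e-10).

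Over all 4 replicates TNF called most replication members higher and a smaller share of the mitotic members under either siRNA, while the medians of the roles were close. Pooled over the 8 groups, the mitotic median level varied more between the replicates of a group (SD 0.42 on the log2 scale) than the replication median level (0.34). The share called depends on such spread as well as on the size of a response. Whether the responses of the 2 roles differ was not tested. In si-control it called 33 members higher and 1 lower, against 16.1% and 14.6% of all genes tested, among them 16 of 17 replication members (median 0.81) and 11 of 19 mitotic members (median 0.70). The largest rises by role were Pola1 (1.06 ± 0.24), the catalytic subunit of polymerase α, Cdc6 (1.05 ± 0.23), a helicase loader, and Cdc45 (0.94 ± 0.26) for replication, and Top2a (1.15 ± 0.30), the checkpoint kinase Bub1 (1.05 ± 0.24) and the kinetochore motor Cenpe (1.01 ± 0.28) for mitosis. Among G1 members Cdk6 (1.04 ± 0.14), Ccne2 (0.86 ± 0.25) and Ccne1 (0.71 ± 0.16) rose, and among the factors Mybl2 (1.13 ± 0.19), Myc (0.93 ± 0.16) and Foxm1 (0.76 ± 0.29). Cdkn1b was the member that fell (−0.30 ± 0.08, adjusted p = 0.00825). The sums in the role plot showed the same order in each set, with replication at 739.9 CPM without cytokine and 1627 CPM with TNF in replicates 1 and 2, and 1152 CPM and 1641 CPM in replicates 3 and 4. The replication median was 1.23 in the first set and 0.54 in the second, the mitotic median 1.06 and 0.45, and the difference between the sets was not tested. The call of Ccne2 was lost without si-control + TNF replicate 1 (0.60) and that of Foxm1 without any 1 of 8 libraries (0.59 to 0.76). The calls of Ccne1 and Ccne2 were lost in replicates 3 and 4, where the values were 0.22 (adjusted p = 0.208) and 0.22 (adjusted p = 0.316). That of Cdkn1b was lost in replicates 1 and 2 (−0.26) and with no low-count filter (−0.28). Those of Foxm1 and Cenpe were lost with the 2 groups fitted alone (0.76 and 1.01). That of Foxm1 was also lost with library totals alone (0.76) and no low-count filter (0.78). TNF in replicates 1 and 2 called 47 members higher and 0 lower, against 20% and 17.3% of all genes. In 3 and 4 it called 37 and 5, against 22.5% and 21.6%. Dcn, a fibroblast marker, was also higher with TNF (5.03 ± 0.74 in si-control and 3.18 ± 0.67 in si-dnmt), and its part in these results was not tested.

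In si-dnmt, TNF called 27 members higher and 1 lower, against 11.5% and 9.54% of all genes tested, with 15 of 17 replication (median 0.71) and 6 of 19 mitotic members (median 0.66). With the block 14 mitotic members passed, and 16 in si-control, counts to which the shares of all genes in the fit without a block do not apply. The shares with the block are not given for TNF. The largest rises were in Cdc6 (1.06 ± 0.23), Cdc45 (0.94 ± 0.26) and Mcm5 (0.90 ± 0.23) for replication and in Top2a (0.91 ± 0.30), the spindle protein Nusap1 (0.77 ± 0.24) and the passenger protein Birc5 (0.76 ± 0.27) for mitosis. Cdk6 (0.90 ± 0.14), Ccne2 (0.83 ± 0.26), Ccnd1 (0.71 ± 0.22), Mybl2 (0.96 ± 0.19) and Myc (0.46 ± 0.16) also rose, and Cdkn1b fell (−0.27 ± 0.08, adjusted p = 0.0212). The calls of Birc5, Myc, Top2a, Nusap1, Ccnd1, Cdkn1b and Ccne2 were each lost without any 1 of 19, 7, 5, 5, 4, 3 and 2 libraries. With no low-count filter those 7 calls were lost as well, that of Birc5 also with library totals alone (0.75) and that of Cdkn1b in replicates 1 and 2 (−0.18). TNF in replicates 1 and 2 called 49 members higher and 0 lower, against 18.9% and 16.4% of all genes, with medians of 0.90 (replication) and 0.80 (mitotic). Within replicates 3 and 4 it called 39 and 1, against 13.1% and 11.9%, with medians of 0.56 and 0.42.

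IFN alone changed few members in the fit over all 4 replicates and more within a replicate set. In si-control it called 3 members higher and 2 lower, against 8.52% and 5.87% of all genes tested. Cenpe (0.83 ± 0.28), Cdk6 (0.87 ± 0.14) and Cdkn1b (0.27 ± 0.08) rose, and Cdk4, a partner of D-type cyclins, (−0.35 ± 0.10) and Mycn (−3.46 ± 0.86) fell. The mitotic median was 0.43 (1 of 19 called) and the replication median 0.05 (0 of 17 called by edgeR, 1 at an unadjusted p under 0.05 and 0 by DESeq2's Wald test). Within a set more mitotic members passed, 13 of 19 in replicates 1 and 2 and 18 of 19 in replicates 3 and 4, and the block called 7 members higher and 3 lower, Top2a among them (0.81, adjusted p = 0.0215). The share of all genes called with the block is not given for IFN. The calls of Cenpe, Cdkn1b and Cdk4 were lost without any 1 of 16, 5 and 1 libraries (0.60 to 0.83, 0.22 to 0.27 and −0.30). In si-dnmt IFN called 1 member higher and 1 lower, against 6.67% and 2.32% of all genes tested (8.99% either way): Cdk6 (0.53 ± 0.14) rose and Mycn fell (−3.17 ± 0.84), and each call was lost without si-dnmt + IFN replicate 1 (0.46 and −2.98). The mitotic median there was 0.25 and the replication median 0.12. Within replicates 1 and 2 IFN called 19 members higher and 6 lower in si-control, against 14.2% and 11.4% of all genes. The counts in si-dnmt were 18 and 4, against 11.4% and 8.23%. Within replicates 3 and 4 it called 27 and 2 in si-control, against 11.9% and 10%. In si-dnmt they were 12 and 1, against 9.35% and 6.86%. The mitotic medians in si-dnmt were 0.32 (11 of 19 higher) and 0.20 (5 of 19 higher) in the sets. The si-control calls of Cenpe and Cdkn1b were lost with library totals alone (0.74 and 0.17), no low-count filter (0.84 and 0.28) and the 2 groups fitted alone (0.82 and 0.26). That of Cdkn1b was also lost in replicates 1 and 2 (0.24).

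TNF + IFN raised the replication members, with a lower median for the mitotic members. In si-control it called 31 members higher and 2 lower, against 23.5% and 21.6% of all genes tested. All 17 replication members passed (median 0.85), led by Cdc45 (1.39 ± 0.26), Pola1 (1.34 ± 0.24) and Cdc6 (1.24 ± 0.23), and 5 of 19 mitotic members (median 0.40), led by Top2a (1.15 ± 0.30), Bub1 (0.85 ± 0.24) and Cenpe (0.83 ± 0.28). Ccne1 (1.77 ± 0.16) had the largest rise of the G1 members, followed by Cdk6 (1.42 ± 0.14) and Ccne2 (0.99 ± 0.26). Among the factors Mybl2 (1.55 ± 0.19), Foxm1 (0.98 ± 0.29) and Myc (0.98 ± 0.16) rose, while Cdk4 (−0.51 ± 0.10) and Mycn (−3.04 ± 0.82) fell. Cdkn1a passed over all replicates (0.56 ± 0.15, adjusted p = 0.00274), with 1.02 in replicates 1 and 2 and -1.0e-04 in replicates 3 and 4. In si-dnmt TNF + IFN called 30 members higher and 2 lower, against 21.3% and 18.8% of all genes tested, with 16 of 17 replication members (median 0.86) and 4 of 19 mitotic members (median 0.38). There Cdc6 (1.56 ± 0.23), Cdc45 (1.29 ± 0.26), Pola1 (1.13 ± 0.24), Tpx2 (1.09 ± 0.21), Top2a (0.96 ± 0.30), the kinase Aurkb (0.80 ± 0.25), Cdk6 (1.41 ± 0.14), Ccne1 (1.35 ± 0.16), Ccne2 (1.19 ± 0.26), Mybl2 (1.46 ± 0.19), Foxm1 (0.81 ± 0.29) and E2f8 (0.73 ± 0.24) rose. Cdk4 (−0.42 ± 0.10) and Mycn (−2.28 ± 0.81) fell. The calls of Cenpe in si-control and of Foxm1 and Mycn in si-dnmt were lost without any 1 of 4, 2 and 5 libraries (0.64 to 0.70, 0.71 to 0.78 and −2.31 to −2.05). The calls of Aurkb (0.62), E2f8 (0.55) and Foxm1 (0.63) in si-dnmt and of Cenpe (0.66) in si-control were lost with library totals alone. Those of Foxm1 (0.81) and Mycn (−2.28) in si-dnmt were lost with no low-count filter. Those of Cdkn1a (0.54) and Cenpe (0.82) in si-control were lost with the 2 groups fitted alone. The replication medians in replicates 1 and 2 were 1.14 in si-control and 1.14 in si-dnmt and the mitotic medians 0.47 and 0.47. Those in replicates 3 and 4 were 0.69 and 0.64 for replication and 0.35 and 0.20 for mitosis. All 17 replication members were higher under each siRNA in both sets.

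**Figure D4:**
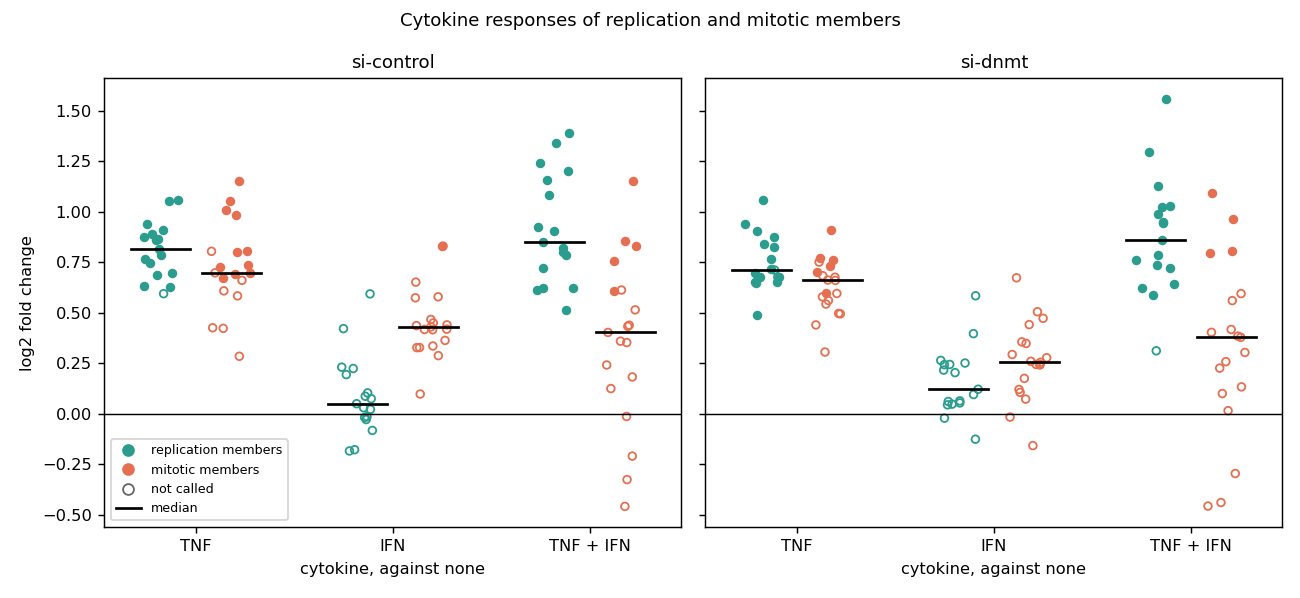
Log2 fold change of each replication and mitotic member with TNF, IFN or TNF + IFN against no cytokine, in si-control (left) and si-dnmt (right), with filled points for members called at an adjusted p under 0.05, open points for the others and bars at the median. Replication members sit above 0 with TNF and TNF + IFN and around 0 with IFN, and mitotic members spread to both sides of 0 with TNF + IFN.

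Whether the combination differed from the sum of the log2 responses to TNF and to IFN was tested as the TNF-by-IFN interaction. In si-control 1 member passed, Ccne1 (0.94 ± 0.23, adjusted p = 0.0341), and 0 were lower, against 0.433% and 0.642% of all genes tested (1.08% either way). That call was lost without any 1 of 9 libraries (0.82 to 0.94), with library totals alone (0.85) and with no low-count filter (0.93). The mitotic median of the interaction was −0.83 and the replication median −0.02. At an unadjusted p under 0.05 edgeR gave 12 of 19 mitotic members lower, DESeq2's Wald test called 0 and the block 3, which were Ccnb2 (−0.99), Aurka (−1.04) and Cdc20 (−1.34). In replicates 1 and 2 18 of 19 mitotic members were lower and in replicates 3 and 4 15 of 19. In si-dnmt edgeR called 0 members, with 2 higher and 2 lower at an unadjusted p under 0.05 and 0 by DESeq2, against 0.177% and 0.177% of all genes. The mitotic median there was −0.60, with 13 of 19 lower in replicates 1 and 2 and 7 of 19 in replicates 3 and 4. For both siRNAs the shares of all genes above are from the adjusted calls over all 4 replicates. They do not apply to the counts within a set, with the block or at an unadjusted p, whose shares are not given. Cdc20 gave an example of the pattern in levels, with 98.6 ± 17.3 CPM with TNF, 88.8 ± 41.8 CPM with IFN and 47.7 ± 25.2 CPM with both in si-control (SD, n = 4), beside 73.5 ± 36.1 CPM without cytokine.

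The response of the members to each cytokine was also compared between the siRNAs. edgeR called 0 members in the siRNA-by-TNF, siRNA-by-IFN and siRNA-by-TNF + IFN interactions, against 0.0328% (0.00656% higher and 0.0262% lower), 0.0459% (all lower) and 0.511% (0.151% higher and 0.361% lower) of all genes. At an unadjusted p under 0.05 there were 1, 0 and 0 members, and DESeq2 called 0, 0 and 0. Within a replicate set the TNF interaction called 1 member in replicates 1 and 2 and 4 in replicates 3 and 4, and the TNF + IFN interaction 3 and 4. The shares of all genes above are from the fit over all 4 replicates and do not apply to these counts, whose shares are not given. A p over the threshold does not show that the responses were alike.

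Myc and Mycn encode related factors that drive growth and S-phase entry. Myc in si-control stood at 33.01, 37.4, 26.96 and 24.7 CPM without cytokine, 41.7, 47.8, 71.4 and 73.4 with TNF, 22.6, 27.7, 25.9 and 32.2 with IFN and 44.9, 44.5, 66.99 and 57.8 with TNF + IFN. In si-dnmt it stood at 30.1, 36.5, 35.4 and 33.98 CPM without cytokine, 41.02, 44.04, 48.8 and 52.1 with TNF, 23.3, 22.3, 31.2 and 27.1 with IFN and 44.3, 44.9, 50.8 and 45.8 with TNF + IFN. With TNF the si-control libraries of Myc lay above those without cytokine, and replicates 3 and 4 were the higher, while the IFN libraries lay in the range of those without cytokine or below it. Myc was called with TNF and TNF + IFN under both siRNAs, and averaged over the states it was lower in si-dnmt (−0.19 ± 0.08, adjusted p = 0.0498), a call lost without any 1 of 21 libraries (−0.20 to −0.16) and with DESeq2 (−0.18), DESeq2-type size factors (−0.18), library totals alone (−0.11) or no low-count filter (−0.19). With TNF the siRNA value of Myc was −0.41 ± 0.16 (adjusted p = 0.0728), or −0.39 (adjusted p = 0.0319) with the block. Mycn had few reads under IFN. Mycn in si-control stood at 4.52, 4.30, 2.12 and 1.43 CPM without cytokine, 16.6, 18.6, 1.46 and 0.707 with TNF, 0.106, 0.239, 0.314 and 0.373 with IFN and 0.634, 0.419, 0.0564 and 0.147 with TNF + IFN. With si-dnmt it stood at 3.14, 3.49, 1.78 and 1.25 CPM without cytokine, 4.99, 5.24, 1.39 and 1.06 with TNF, 0.112, 0.248, 0.383 and 0.239 with IFN and 0.461, 0.554, 0.390 and 0.338 with TNF + IFN. The IFN values of Mycn rest on 2, 5, 6 and 7 counts in si-control and 2, 6, 8 and 8 counts in si-dnmt, so the size of its fall is uncertain. Without IFN, replicates 1 and 2 were above 3 and 4 in every group, most of all in si-control with TNF. The siRNA value of Mycn with TNF was −1.61 ± 0.67 (adjusted p = 0.091) over all replicates, −1.84 (adjusted p = 6.98e-08) in replicates 1 and 2, 0.09 (adjusted p = 0.894) in replicates 3 and 4 and −1.33 (adjusted p = 0.0192) with the block. The fall with IFN held in 4 of 4 libraries of each siRNA (−3.46 ± 0.86, adjusted p = 0.00566 in si-control and −3.17 ± 0.84, adjusted p = 0.0138 in si-dnmt).

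**Figure D5:**
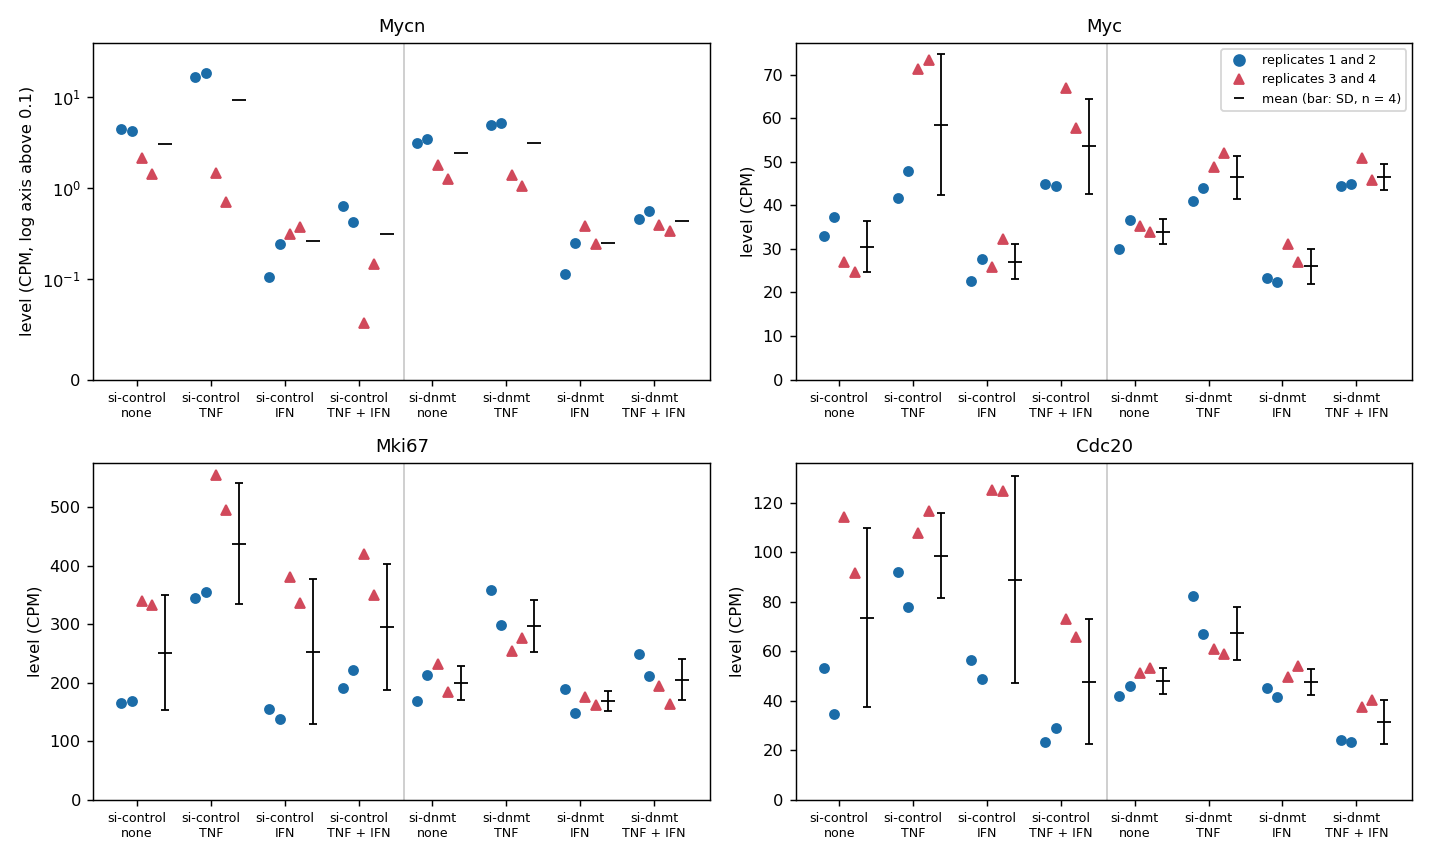
Levels (CPM) of Mycn (log axis above 0.1), Myc, Mki67 and Cdc20 (linear axes from 0) in the 8 groups, 1 point per library (circles, replicates 1 and 2, and triangles, replicates 3 and 4), with a bar at the mean of 4 libraries and, except for Mycn, its SD. Mycn is below 1 CPM in every library given IFN, and Cdc20 with TNF + IFN lies below its TNF libraries under both siRNAs.

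Genes of the same pathway that are not members were counted in 5 further lists. Averaged over the states, si-dnmt had 2 of 41 higher and 21 lower among other replication genes and 3 of 53 higher and 41 lower among other mitotic genes. The largest falls were in Tk1 (−0.76), thymidine kinase, and Rfc4 (−0.60), a clamp loader subunit, and in Cdc25b (−1.62), the phosphatase that activates CDK1, and Cks2 (−1.27), a CDK1 subunit. Clspn (0.34), Rfc1 (0.17), Gtse1 (0.65) and Ccnf (0.33) were higher. Among p53 target genes, si-dnmt had 12 of 20 higher and 2 lower, with rises in Ccng1 (1.28), cyclin G1, and Plk3 (0.88) and falls in Gadd45a (−0.89), a growth arrest gene, and Ckap2 (−0.39), which the mitotic list also holds. Myc targets of ribosome biogenesis had 5 of 20 higher and 3 lower, with Nme1 (0.46) and Nolc1 (0.42) higher and Npm1 (−0.83) and Rrs1 (−0.55) lower. Other inhibitors and pocket proteins had 2 of 14 higher and 3 lower, with Rbl2 (0.27) and E2f6 (0.17) higher and Pkmyt1 (−0.45) and Lin54 (−0.29) lower. These counts stand against 24.4% higher and 24% lower of all genes tested. The siRNA-by-set test found 51 of 53 other mitotic genes and 31 of 41 other replication genes lower in replicates 3 and 4, and 7 of 20 p53 targets higher and 5 lower. Of all genes, that test called 9.01% higher and 14.9% lower. With TNF in si-control, 30 of 41, 33 of 53 and, among Myc targets, 13 of 20 rose, against 16.1% of all genes. With TNF + IFN the counts were 31 of 41, 20 of 53 and 6 of 20, against 23.5%.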

How the data were processed

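The deposited table holds raw read counts per gene, which the authors made and merged over the 32 samples. The submitters' processing notes name cutadapt 4.9, FastQC 0.12.1, MultiQC 1.27.1, featureCounts and DESeq2. The aligner, genome build, annotation and strand setting were not given in the sources used here. Reads shared with overlapping, antisense or near-identical genes therefore could not be told apart. Columns were matched to samples by their labels.

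Genes were kept by edgeR's filterByExpr (minimum count 10), which left 15254 genes and at least 99.91% of the counts of each library. Counts were scaled by TMM factors (0.88 to 1.09) and fitted in R 4.3.3 with edgeR 4.0.16 and limma 3.58.1 (robust quasi-likelihood) as 8 group means with 24 residual degrees of freedom. Two-sided p-values were adjusted by Benjamini-Hochberg over all genes tested, with a threshold of 0.05. A fit of 16 means (8 groups by 2 replicate sets, 16 residual degrees of freedom) tested the sets against each other. In that fit, and in the fits of each set alone, the p-values measure only the spread between the 2 libraries of a set. The scripts were tested on simulated data. Total counts ranged from 17362546 to 33500030, and intervals at 0 counts (3 counts) cover counting error only.

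The study describes the replicates as biological, but the labels give no culture or day, so the p-values measure only the spread between these samples. Same-numbered libraries of different groups deviated together from their group means (r over 0.1 for 112 of 112 pairs, 0.297 to 0.617, median 0.415). A shift between the replicate sets also gives such correlation, and the own number gave the highest r in 70 of the 112 pairs. Pairing by number was therefore not shown, and the replicate number was fitted as a block as an alternative. Other alternatives were library totals, DESeq2-type size factors, no low-count filter, DESeq2 1.42.0, each replicate set alone, the compared groups alone, and leaving out each library.

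The members, the other gene lists, the markers and the replicate sets were chosen with earlier results of these data known. Values in every library were given for 19 listed members and for those called in at least 2 siRNA comparisons (Ccnd3, Cdk6, Rrm2, Tyms and Kif11). Otherwise all called members were named where 6 or fewer were called in a direction, and else the 3 largest changes of each role. From each other list the 2 largest rises and 2 largest falls were named. Mcm4, Mcm6, Gins1, Gins2, Rrm1, Prim1, Cdk2, E2f2, Aurka, Tpx2 and the genes next to Cdkn2a were named after their values were seen. RefSeq promoter windows (GRCm38.p6) were used for sequence only, and no coordinates of the counted features were used.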

Additional observations from a re-analysis of the deposited data

Results flagged for a closer look

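In 5 of the 176 group-by-gene sets of 4 libraries examined for 24 genes, 1 library lay farther from the other 3 than Dixon's test for 4 values allows at the 95% level. Among the 24 genes, Cdkn2a and Cdkn2b had no reads and gave no such set. Chance gives this in about 1 in 20 groups of 4 like values. Many groups here were split into pairs by the replicate sets, so that rate does not apply to them. The low libraries were si-dnmt + TNF replicate 3 for Mcm2 (90.2 CPM) and si-dnmt replicate 3 for Pcna (120.7 CPM). The high libraries were si-control + IFN replicate 4 for Cdkn1a (205.3 CPM), si-dnmt + IFN replicate 1 for Cdk6 (51.9 CPM) and si-dnmt + TNF replicate 4 for Foxm1 (109.2 CPM).

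The siRNA effect differed between replicates 1 and 2 and replicates 3 and 4 by a test of the difference itself, with the error taken within the sets. Averaged over the cytokine states 43 members passed, and by state 34 passed without cytokine, 26 with TNF, 40 with IFN and 36 with TNF + IFN. Of all genes tested 23.9%, 7.59%, 6.18%, 5.42% and 9.44% passed in the same order. The labels give no culture, day or batch for the sets, and the cause was not tested.

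The effect of TNF differed with and without IFN in si-control for 1 member, Ccne1, by the interaction test (0.94 on the log2 scale).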

How the results depend on the processing

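Of the counts and medians recomputed with other settings, apart from leaving out a library, 380 stayed within 1.5 times or 1 SD of the reported value and 49 did not. The members called by si-dnmt against si-control in replicates 3 and 4 alone were 47 without cytokine, 44 with TNF, 44 with IFN and 46 with TNF + IFN, and in replicates 1 and 2 alone 15 with TNF and 13 with TNF + IFN. With the replicate number as a block, which pairs same-numbered libraries, 18 members were called with TNF, 13 with TNF + IFN, 10 by IFN in si-control and 4 in the TNF-by-IFN interaction in si-control, and no other count moved by over 1.5 times. With the compared groups fitted alone the siRNA called 20 with TNF, 6 with IFN and 8 with TNF + IFN, as did DESeq2 for the last (8). With IFN library totals gave 7 and no filter 6. The share of all genes called also differed between fits, so these and the following counts cannot be set against the shares over all 4 replicates.

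In replicates 1 and 2 the siRNA medians were 0.12 (replication) and 0.125 (mitotic) without cytokine, 0.24 and 0.061 with IFN, 0.073 and 0.035 averaged, and 0.077 (mitotic) with TNF + IFN. In replicates 3 and 4 they were −0.56 (replication) and −1.09 (mitotic) with IFN, −0.90 (mitotic) with TNF + IFN and −0.95 (mitotic) averaged. The replication median with TNF in si-control was 1.23 in replicates 1 and 2. IFN in si-control called 3 members with library totals, 3 with no filter, 3 with 2 groups alone, 25 in replicates 1 and 2 and 29 in 3 and 4. IFN in si-dnmt called 22 and 13 in the sets and 7 with 2 groups alone, and TNF in si-dnmt 15 with no filter, 49 in replicates 1 and 2 and 43 with 2 groups alone. The siRNA-by-TNF interaction called 1 and 4 members in the sets and the siRNA-by-TNF + IFN interaction 3 and 4. The TNF-by-IFN interaction in si-control called 0 with library totals, 0 with no filter, and 23 and 17 in the sets, and in si-dnmt 15 and 7.

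Leaving out each library in turn, the members called ranged from 5 to 12 without cytokine, 5 to 11 with TNF, 5 to 19 with IFN and 4 to 11 with TNF + IFN for the siRNA, 3 to 9 for IFN in si-control, 0 to 2 for IFN in si-dnmt, 15 to 32 for TNF in si-dnmt and 0 to 1 for the TNF-by-IFN interaction in si-control. The lowest IFN count came without si-control + IFN replicate 3 or 4.

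Single members turned sign mostly in replicates 1 and 2 alone. Without cytokine these were Mki67 (0.125), Top2a (0.25), Plk1 (0.17), Foxm1 (0.39) and Myc (−0.15), with TNF Plk1 (0.064), Ccnd2 (−0.027) and Foxm1 (0.22), with IFN Mki67 (0.084), Top2a (0.30), Cdk1 (0.082), Mcm2 (0.17), Foxm1 (0.37) and Mycn (0.0028), with TNF + IFN Mki67 (0.086), Top2a (0.22), Cdk1 (0.064), Ccnb1 (0.15), Plk1 (0.089), Cdkn1a (−0.13), Foxm1 (0.22) and Mycn (−0.13), and averaged Cdc45 (0.035), Mki67 (0.035), Top2a (0.16), Plk1 (0.076) and Foxm1 (0.30). In replicates 3 and 4 alone Mycn turned with TNF (0.091) and averaged (0.29), E2f1 with IFN (−0.0285) and Cdkn1a with TNF + IFN in si-control (-1e-04). Library totals turned Foxm1 without cytokine (0.0145). Over the libraries left out in turn, values that were not called crossed 0 for Foxm1 without cytokine (−0.24 to 0.15) and with IFN (−0.38 to 0.0102), Myc without cytokine (−0.0235 to 0.20), Ccnd2 with TNF (−0.075 to 0.65), Mycn with IFN (−0.39 to 0.0556) and E2f1 with TNF + IFN (−0.0095 to 0.045). The causes were not tested.

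In sum 1174 single-gene values kept direction and side of the threshold, 81 gained a call, 78 lost one and 32 turned sign. For genes with few reads, such as Mycn under IFN and Ccnd2, depth limits the size of a change.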
